A study of Mus musculus with 4 samples.

Results

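Il7r, Il2ra, Il2rb, Il2rg, Kit, Il4ra, Il6ra and Ifngr1 encode surface receptors through which thymocytes sense cytokines, and Socs1 and Socs3 encode intracellular proteins that damp the signals of such receptors. These 10 genes, chosen by symbol from the 32285 genes of the count matrices, were followed through the stages of T cell development in the mouse thymus and between Tox4-deleted and control thymocytes. The control mice were Tox4 F/F, that is, they carried 2 Tox4 alleles with loxP sites on both sides of exons 4 to 6 and no Cre. The conditional knockout (cKO) mice were Tox4 F/F;Lck+, carrying the same floxed alleles and a Cre recombinase driven by the proximal promoter of Lck, which is active in T lineage thymocytes from the DN3 stage. Per the study's methods, the mice were gender-matched littermates 6 to 8 weeks old, and dissociated thymocytes without sorting were captured with the 10x Genomics 3′ kit, version 3. There were 2 libraries for each genotype, named control 1, control 2, cKO 1 and cKO 2.

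A type I cytokine receptor has no kinase of its own. Its chains carry JAK kinases, which upon ligand binding phosphorylate STAT transcription factors, and SOCS genes are themselves STAT targets, so that their products close a negative feedback loop. The common gamma chain (Il2rg) is shared: with Il7r it forms the receptor for IL-7, with Il2ra and Il2rb the high-affinity receptor for IL-2, and with Il4ra a receptor for IL-4. Ifngr1 is the ligand-binding chain for interferon gamma, Il6ra that for IL-6, and Kit is a receptor tyrosine kinase for stem cell factor. In the thymus, early CD4-CD8- double negative (DN) cells depend on IL-7 and stem cell factor, CD4+CD8+ double positive (DP) cells are known for ignoring most cytokines, and Il7r returns after positive selection.

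The 4 libraries held 57354 cells and 42716798 to 62007453 UMIs each, and 33392 cells were kept. Cells with over 10% mitochondrial UMIs made up 48.3% and 46.1% of control 1 and cKO 1 and 20.6% and 23.1% of control 2 and cKO 2. The median depth of kept cells was 3447 and 2915 UMIs in control and 3218 and 2492 in cKO. A total of 347 barcodes occurred in 2 libraries. Clusters were built without the 10 genes and named by marker lists that do not hold them: DN-like, DP blast-like (DPbla, cycling), DP rearranging-like (DPre, Rag1 and Rag2 high), DP under selection-like (DPsel), CD4 single positive-like (CD4SP) and CD8 single positive-like (CD8SP), called by the bare names below. The DPbla list held 13 cell cycle genes and no marker that sets DP apart from other cycling thymocytes. Whether DPbla, counted as DP below, also held such cells was not tested. The DN class held 71, 108, 149 and 295 cells in control 1, control 2, cKO 1 and cKO 2, and DPbla 488, 683, 791 and 1335. Cells with the highest and lowest 2.5% of UMIs in each library had been removed. With these UMI extremes kept and the cells clustered again, DPbla held 674, 876, 1091 and 1686 cells. Its UMIs were then 11250319, 12906731, 17518791 and 21085788, against 4609275, 6309939, 8165509 and 11374423 with the extremes removed. The summed level of 8 macrophage and dendritic markers was 119 to 273 CPM in the 6 stages against 8596 to 12988 CPM in the macrophage-like class. Neither genotype's Tox4 level checks the labels, since a 3′ kit reads mainly the last exon, outside the floxed ones: Tox4 was 73.1 and 75.8 CPM in control and 57.2 and 61.1 in cKO over all DP cells (log2 fold change -0.28, SE 0.10, adjusted p = 0.112).

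Sequence around the transcription start is printed for 5 of the genes: Il4ra, called below over all DP cells, whose window held no match, and Il7r, Il2ra, Socs1 and Socs3, whose windows held one. The windows come from RefSeq on GRCm38.p6, hold 250 bases before and 50 after the start, and were given for 9 of the 10 genes, all but Il2rb. Capitals mark matches, on either strand, to TTCNNNGAA (the GAS motif of STAT dimers, in 8.30% of 32851 promoter windows of this length), to GAAA and GAAA 2 bases apart (a core of the interferon-stimulated response element, in 3.44%), to ACTTCC (an ETS core, in 23.8%) or to TGTGGT (a RUNX core, in 16.8%). A wider form, TTC and GAA 4 bases apart, which STAT6 prefers, was searched as well (6.95% of windows) and matched in none of the 9 genes.
Il4ra chr7:125552021-125552320 (plus strand): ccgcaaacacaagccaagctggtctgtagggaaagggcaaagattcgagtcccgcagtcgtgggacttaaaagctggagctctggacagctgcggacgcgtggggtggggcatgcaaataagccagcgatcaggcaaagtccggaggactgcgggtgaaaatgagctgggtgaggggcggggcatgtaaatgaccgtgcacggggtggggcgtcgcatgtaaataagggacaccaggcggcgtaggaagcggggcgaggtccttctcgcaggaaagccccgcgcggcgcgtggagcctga
Il7r chr15:9529827-9530126 (minus strand): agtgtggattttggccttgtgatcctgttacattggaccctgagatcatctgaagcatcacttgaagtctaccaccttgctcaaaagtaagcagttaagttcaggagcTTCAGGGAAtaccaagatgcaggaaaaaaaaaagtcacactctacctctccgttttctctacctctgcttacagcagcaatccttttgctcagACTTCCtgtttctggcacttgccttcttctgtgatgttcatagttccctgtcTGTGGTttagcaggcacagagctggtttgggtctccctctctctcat
Il2ra chr2:11642542-11642841 (plus strand): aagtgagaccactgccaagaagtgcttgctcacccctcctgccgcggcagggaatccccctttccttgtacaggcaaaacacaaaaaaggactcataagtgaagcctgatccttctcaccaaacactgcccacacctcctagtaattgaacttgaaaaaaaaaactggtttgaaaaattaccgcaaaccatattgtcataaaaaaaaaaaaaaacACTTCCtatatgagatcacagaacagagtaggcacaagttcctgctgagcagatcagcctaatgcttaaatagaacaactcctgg
Socs1 chr16:10785487-10785786 (minus strand): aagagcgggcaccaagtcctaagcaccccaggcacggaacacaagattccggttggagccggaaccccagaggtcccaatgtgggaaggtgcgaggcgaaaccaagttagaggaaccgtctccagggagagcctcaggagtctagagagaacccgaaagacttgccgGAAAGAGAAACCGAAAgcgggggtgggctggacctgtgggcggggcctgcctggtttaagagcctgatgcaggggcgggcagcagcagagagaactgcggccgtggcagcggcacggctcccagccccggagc
Socs3 chr11:117969317-117969616 (minus strand): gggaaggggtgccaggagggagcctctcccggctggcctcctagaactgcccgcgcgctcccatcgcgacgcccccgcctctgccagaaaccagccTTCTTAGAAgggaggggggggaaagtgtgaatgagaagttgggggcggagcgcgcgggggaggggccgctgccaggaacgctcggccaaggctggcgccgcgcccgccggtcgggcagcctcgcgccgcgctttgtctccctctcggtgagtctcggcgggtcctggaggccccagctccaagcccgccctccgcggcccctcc
The Il7r window held a GAS match starting 142 bases before the start, an ETS match 49 bases before it and a RUNX match 3 bases into the transcript. In the Socs1 window, the pair of GAAA matched at 83 and at 77 bases before the start, and the matches overlap, which gives 1 run of capitals. Socs3 held a GAS match 154 bases before the start, and Il2ra an ETS match 35 bases before it. Of the windows not printed, that of Il2rg held a RUNX match and that of Il6ra 2 ETS matches. The windows of Il4ra, Ifngr1 and Kit held none of the 5 motifs. A match is a description of the letters and not a bound site.

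Levels are given as CPM, the UMIs of a gene per 1000000 UMIs summed over the cells of a stage in a library. Il7r (chr15:9505788-9530176, minus strand, GRCm38), whose product binds IL-7, was high in DN cells, nearly silent in both younger DP stages and high again from DPsel on. In DN cells it was at 126 and 119 CPM in control and 136 and 121 in cKO. It was at 0.868 and 1.902 CPM in control and 3.92 and 4.396 in cKO in DPbla. In DPre it was at 3.97 and 2.27 CPM in control and 5.598 and 5.03 in cKO, so every library lay far below its own DN value in both. In DPsel the level was 194 and 136 CPM in control and 256 and 140.2 in cKO, a log2 ratio to DPre of 5.46 ± 0.47 (SD, n = 4), or 43.9-fold. CD4SP cells held 146 and 174 CPM in control and 209.8 and 179.9 in cKO. CD8SP cells held 202 and 214 CPM in control and 208 and 215 in cKO. The ranges of CD8SP, DPsel and CD4SP overlapped. CD8SP and CD4SP lay above DN in every library, while control 2 of DPsel did not exceed every DN value, and DPre and DPbla overlapped at the bottom.

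The level of Il7r differed between the clusters of DPsel. DPsel was made of 3 clusters, led by Cd5, Arap2 and Egr1 (cluster 3, 2599 cells), by Nr4a1 (cluster 10, 1232 cells), an immediate target of antigen receptor signals, and by Itm2a (cluster 4, 2457 cells). In the Cd5 cluster Il7r was at 3.99 and 1.87 CPM in control and 5.66 and 5.21 in cKO, close to its level in DPre. This cluster passed as DPsel narrowly, with a marker score of 1.019 (the mean log2 difference of the DPsel markers from the other clusters) against a minimum of 1. Its score for the DPre markers was 1.017, nearly a tie, so it could almost as well have been named DPre. The levels and shares given for DPsel include this cluster. In the Nr4a1 cluster Il7r was at 13.6 and 11.5 CPM in control and 13.4 and 16.5 in cKO. In the Itm2a cluster it was at 362 and 284 CPM in control and 451 and 291 in cKO, above its level in CD4SP and CD8SP in every library. Ifngr1 ran the other way over the same clusters, with 639 and 506 CPM in control and 601 and 504 in cKO in the Cd5 cluster. It was at 297 and 253 CPM in control and 177 and 180.4 in cKO in the Nr4a1 cluster and at 89.4 and 72.4 CPM in control and 84.6 and 86.8 in cKO in the Itm2a cluster. Il2rg differed less, at 238 and 239 CPM in control and 199 and 204 in cKO in the Cd5 cluster and 295 and 314 CPM in control and 306 and 281 in cKO in the Itm2a cluster. Il7r was not among the genes used for clustering, but genes that move with it were, so these levels are a description and carry no test. The Itm2a cluster took 41.6% and 36.7% of DPsel cells in control and 44.6% and 37.0% in cKO, and the DPsel level of Il7r was likewise higher in the libraries numbered 1 of both genotypes.

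The same split was seen in single cells. Cells were thinned to 1000 UMIs, so that depth was equal, and shallower cells were left out, here and in each share after thinning: 6, 14, 17 and 34 DPsel cells and 74, 95, 149 and 218 DPre cells in control 1, control 2, cKO 1 and cKO 2. In DPsel the share with an Il7r UMI was 10.3 and 6.36% in control and 13.9 and 7.11% in cKO, with an exact 95% interval of 8.52 to 12.3% in control 1, against 0.30 to 0.58% of DPre cells. Unthinned, it was 24.2 and 16.8% in control and 27.2 and 15.2% in cKO in DPsel. The median depths before thinning were 2672.5 to 4011 UMIs in DPsel and 2234 to 3085 in DPre. Of the DPsel cells with an Il7r UMI, the share that also had an Ifngr1 UMI was 7.34 and 8.11% in control and 7.097 and 3.07% in cKO, and of those without Il7r it was 26.8 and 22.1% in control and 23.2 and 22.9% in cKO. Ifngr1 thus had the lower share beside Il7r in all 4 libraries, on 109 to 163 cells with Il7r per library. Il2rg showed no such split, its share being 24.8 and 23.4% in control and 32.3 and 25.8% in cKO of cells with Il7r, and 25.2 and 25.5% in control and 22.8 and 21.2% in cKO of cells without.

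Il2ra (chr2:11642807-11693193, plus strand) encodes CD25, the alpha chain that raises the affinity for IL-2 and whose surface display marks the DN2 and DN3 stages. It was at 511 and 431 CPM in control and 438 and 420.0 in cKO in DN cells. In DPbla it was at 1.302 and 1.27 CPM in control and 4.65 and 2.901 in cKO, a log2 ratio of 7.69 ± 0.99 (SD, n = 4), which was 5.35 with the UMI extremes kept. After thinning, the share of DN cells with a UMI of it was 42.3 and 32.4% in control and 34.2 and 32.2% in cKO, with an exact 95% interval of 30.6 to 54.6% in control 1, on 71 cells. DPre, DPsel and CD8SP cells had 0 to 6.63 CPM in every library and DPre cells with a UMI made up 0.52 to 0.76%. CD4SP was the second highest stage, at 27.3 and 38.1 CPM in control and 38.3 and 20.5 in cKO.

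Il2rb (chr15:78479256-78495271, minus strand), the signalling chain shared by IL-2 and IL-15, was a gene of the mature stages. In DN cells it had 1 UMI in cKO 2 and 0 in the other 3 libraries. A count of 0 in the 71 DN cells of control 1 allows a share of cells with a UMI of up to about 4.23%, for counting error alone. This limit is 3 of 71 cells, an approximation, and not the exact interval used for the other shares. The count sets no limit on cells that express the gene. Il2rb was at 10.99 and 7.399 CPM in control and 12.4 and 12.4 in cKO in DPsel. In CD4SP it was at 40.01 and 52.4 CPM in control and 40.7 and 53.4 in cKO, and in CD8SP at 133 and 125 CPM in control and 121 and 142 in cKO. These 3 stages did not overlap, and CD8SP exceeded CD4SP by 1.49 ± 0.21 on the log2 scale (SD, n = 4), or 2.82-fold. The stage with the most Il2ra, DN, thus had next to no Il2rb.

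Both chains were high in a small group of CD4SP cells with a UMI of Foxp3, the factor that defines regulatory T cells. These were 23 and 30 cells in control and 20 and 19 in cKO, 92 of 2111 CD4SP cells. Il2ra was at 285 and 394 CPM in control and 365 and 208 in cKO in them, and at 13.4 and 16.1 CPM in control and 25.7 and 14.9 in cKO in the other CD4SP cells. Il2rb was at 249 and 356 CPM in control and 292 and 233 in cKO with Foxp3, and at 28.8 and 33.6 CPM in control and 30.97 and 48.03 in cKO without. Each Foxp3+ value of both chains lay above each Foxp3- value. Ifngr1 followed, at 263 and 217 CPM in control and 274 and 233 in cKO against 97.4 and 69.3 CPM in control and 97.1 and 82.6 in cKO. Il7r went the other way, at 49.8 and 77.8 CPM in control and 164 and 36.7 in cKO against 151 and 180.1 CPM in control and 212 and 184 in cKO, with cKO 1 nearest to the cells without Foxp3. These Foxp3+ levels rest on 42 UMIs of Il7r, 168 of Il2ra and 150 of Il2rb in all, and were not compared between genotypes.

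**Figure D1:**
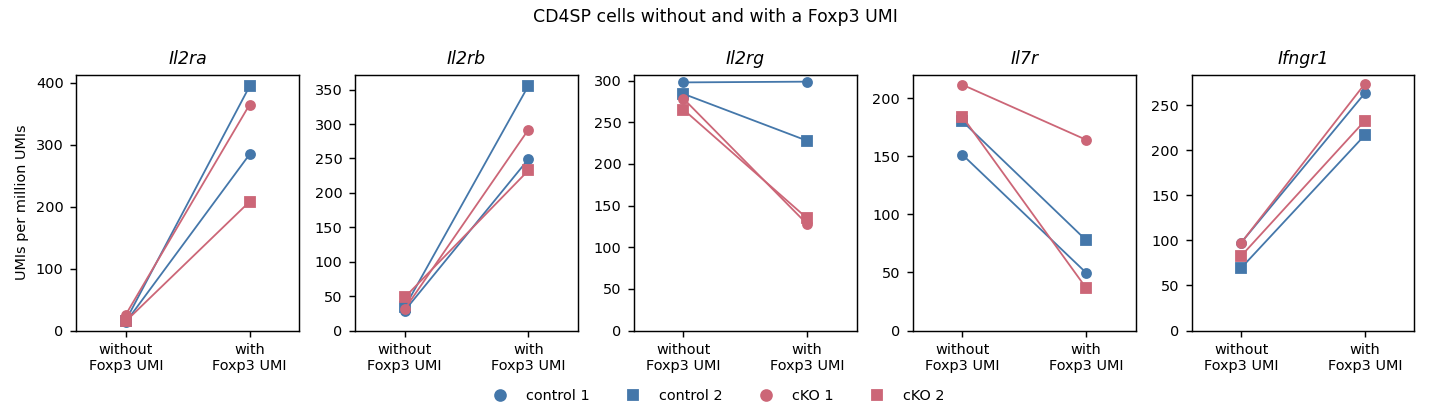
Level (CPM, linear axis from 0) of Il2ra, Il2rb, Il2rg, Il7r and Ifngr1 in CD4SP cells without and with a Foxp3 UMI, 1 point for each library, joined by a line, control and cKO in separate colours. Il2ra lies at 208 to 394 CPM with Foxp3 and at 13.4 to 25.7 CPM without, while Il7r lies lower with Foxp3.

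In CD8SP, 26 cells had a UMI of Zbtb16, the factor of innate-like T cells: 8 and 8 in control and 2 and 8 in cKO. Il7r was at 698 and 505 CPM in control and 285 and 488 in cKO in these cells and at 175 and 198 CPM in control and 207 and 202 in cKO in the rest of CD8SP. With 2 cells in cKO 1, its value there has little weight.

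Il2rg (chrX:101264378-101268255, minus strand), the common gamma chain, was measured at every stage and had the smallest ratio of highest to lowest stage among the 8 receptor genes. It was lowest in DPbla, at 90.5 and 83.8 CPM in control and 81.6 and 80.8 in cKO, then in DN, at 118 and 120.4 CPM in control and 101 and 109 in cKO. It was at 189 and 198 CPM in control and 159 and 148 in cKO in DPre. In DPsel it was at 286 and 289 CPM in control and 275 and 256 in cKO. CD4SP and CD8SP overlapped with DPsel, and DPsel exceeded DPbla by 1.72 ± 0.06 on the log2 scale (SD, n = 4), or 3.29-fold, with a narrow spread between libraries. After thinning, 22.3 to 24.9% of CD4SP cells had a UMI of it.

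Kit (chr5:75574916-75656722, plus strand), the receptor for stem cell factor, was at 16.9 and 21.1 CPM in control and 23.2 and 26.2 in cKO in DN cells, from 11 and 23 UMIs in control and 33 and 65 UMIs in cKO. The 3 DP stages held under 2 CPM, a log2 ratio of DN to DPbla of 4.41 ± 0.48 (SD, n = 4). CD4SP held 5.09 and 5.49 CPM in control and 7.45 and 6.71 in cKO. CD8SP held 9.21 and 4.93 CPM in control and 14.3 and 12.1 in cKO, which overlapped with CD4SP. Mast cells also carry Kit, and of 6 mast cell markers 5 were at 0 in the DN class, while the other, Cpa3, known in early T cell progenitors as well, was at 92.1 to 125 CPM there.

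Il4ra (chr7:125552120-125579474, plus strand), the IL-4 binding chain, was, unlike Il2ra and Kit, lowest in DN cells, at 1.53 and 5.52 CPM in control and 5.63 and 8.88 in cKO. It was at 24.9 and 18.5 CPM in control and 12.7 and 13.3 in cKO in DPbla. In DPre it was at 83.2 and 71.9 CPM in control and 52.8 and 56.1 in cKO, and the log2 ratio of DPre to DPbla was 1.96 ± 0.15 (SD, n = 4), or 3.88-fold. It was 2.88 with the UMI extremes kept and 2.55 at a mitochondrial limit of 5%. DPsel held 81.7 and 66.7 CPM in control and 52.2 and 60.2 in cKO, about the DPre level. CD4SP held 67.3 and 50.4 CPM in control and 40.3 and 44.9 in cKO. CD8SP held 33.2 and 27.9 CPM in control and 28.5 and 20.6 in cKO. DPre, DPsel and CD4SP overlapped, as did CD8SP and DPbla below them.

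Il6ra (chr3:89864059-89913196, minus strand), the IL-6 binding chain, was, like Il2rb, a gene of the mature stages. DN, DPbla and DPre each held at most 2.02 CPM. The level was 11.4 and 7.85 CPM in control and 10.1 and 6.71 in cKO in DPsel. It was 77.5 and 80.8 CPM in control and 77.3 and 80.9 in cKO in CD4SP. CD8SP held 29.5 and 32.3 CPM in control and 35.6 and 33.3 in cKO, and the 3 stages did not overlap. CD4SP exceeded CD8SP by 1.28 ± 0.12 on the log2 scale (SD, n = 4), or 2.43-fold, and thus showed the opposite order to Il2rb. Il6st, the signalling chain gp130 that Il6ra needs, was present at each stage, at 26.1 and 21.1 CPM in control and 14.8 and 25.4 in cKO in DN and 111 and 115 CPM in control and 95.4 and 119 in cKO in DPsel.

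Ifngr1 (chr10:19591949-19610229, plus strand), the binding chain for interferon gamma, was highest before selection. It was at 285 and 322 CPM in control and 371 and 294 in cKO in DN. DPbla held 554 and 407 CPM in control and 396 and 339.9 in cKO and DPre 612 and 493 CPM in control and 567 and 464 in cKO, with overlapping ranges between neighbours. In DPsel it was at 277 and 250.4 CPM in control and 238 and 249.7 in cKO. CD8SP held 117 and 115 CPM in control and 114 and 122 in cKO and CD4SP 106 and 77.9 CPM in control and 104 and 86.9 in cKO, the lowest stages. DPre exceeded CD4SP by 2.52 ± 0.11 on the log2 scale (SD, n = 4), or 5.72-fold. Its partner chain Ifngr2 had the opposite order of DN and CD4SP, at 12.3 and 11.03 CPM in control and 16.9 and 8.88 in cKO in DN and 78.6 and 72.4 CPM in control and 62.01 and 67.5 in cKO in CD4SP. A gamma delta T-like class, of 15 or more cells in each library, held 864 and 616 CPM in control and 689 and 479.9 in cKO of Ifngr1.

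Socs1 (chr16:10782240-10785536, minus strand), an inhibitor of JAK kinases downstream of IL-7, IL-4 and interferon gamma receptors, peaked in DPre. It was at 195 and 137 CPM in control and 148 and 134 in cKO in DN and at 254 and 274 CPM in control and 176 and 183 in cKO in DPbla. In DPre it was at 484 and 618 CPM in control and 405 and 459 in cKO, and in DPsel at 254 and 337 CPM in control and 251 and 269.7 in cKO. The single positive stages were lowest, CD4SP at 117 and 108 CPM in control and 111 and 113 in cKO and CD8SP at 104 and 97.95 CPM in control and 85.1 and 85.3 in cKO. DPre lay above every other stage and exceeded CD4SP by 2.11 ± 0.28 on the log2 scale (SD, n = 4), or 4.33-fold. In the DPsel clusters, where Il7r differed most, Socs1 was at 349 and 436 CPM in control and 305 and 321 in cKO in the Cd5 cluster. It was at 363 and 449 CPM in control and 340.4 and 379 in cKO in the Nr4a1 cluster and at 162 and 217 CPM in control and 198 and 188 in cKO in the Itm2a cluster. In DPre cells, the share with a Socs1 UMI was 36.6 and 44.1% in control and 31.4 and 37.0% in cKO beside an Ifngr1 UMI. Without one it was 37.2 and 43.6% in control and 33.7 and 34.9% in cKO, higher in 2 libraries and lower in 2. In DPsel it was 25.1 and 31.8% in control and 26.5 and 26.8% in cKO beside Ifngr1 and 20.1 and 27.6% in control and 20.8 and 20.99% in cKO without, higher beside it in all 4 libraries. In DPbla it was 24.6 and 28.6% in control and 23.5 and 14.9% in cKO beside Ifngr1 and 17.4 and 20.95% in control and 14.6 and 18.5% in cKO without, higher in 3 of 4.

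Socs3 (chr11:117966079-117970047, minus strand), which inhibits signalling through gp130, was highest in DN cells, at 58.3 and 51.5 CPM in control and 27.4 and 30.3 in cKO. It was at 4.34 and 1.27 CPM in control and 3.43 and 1.93 in cKO in DPbla. In DPre it was at 22.7 and 18.8 CPM in control and 17.5 and 13.3 in cKO, and in DPsel at 6.01 and 3.02 CPM in control and 5.78 and 2.096 in cKO, so that the level of DPre stood between lower ones. CD4SP held 24.4 and 18.7 CPM in control and 13.2 and 12.4 in cKO. CD8SP held 18.4 and 8.76 CPM in control and 9.797 and 10.9 in cKO, overlapping with DPre. DN exceeded DPsel by 3.37 ± 0.82 on the log2 scale (SD, n = 4), or 10.3-fold. Among thinned DN cells, the share with Socs3 was 6.67 and 14.3% in control and 3.92 and 5.26% in cKO beside an Il2ra UMI, and 2.44 and 1.37% in control and 3.06 and 1% in cKO without one, on 30 to 95 cells with Il2ra per library.

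**Figure D2:**
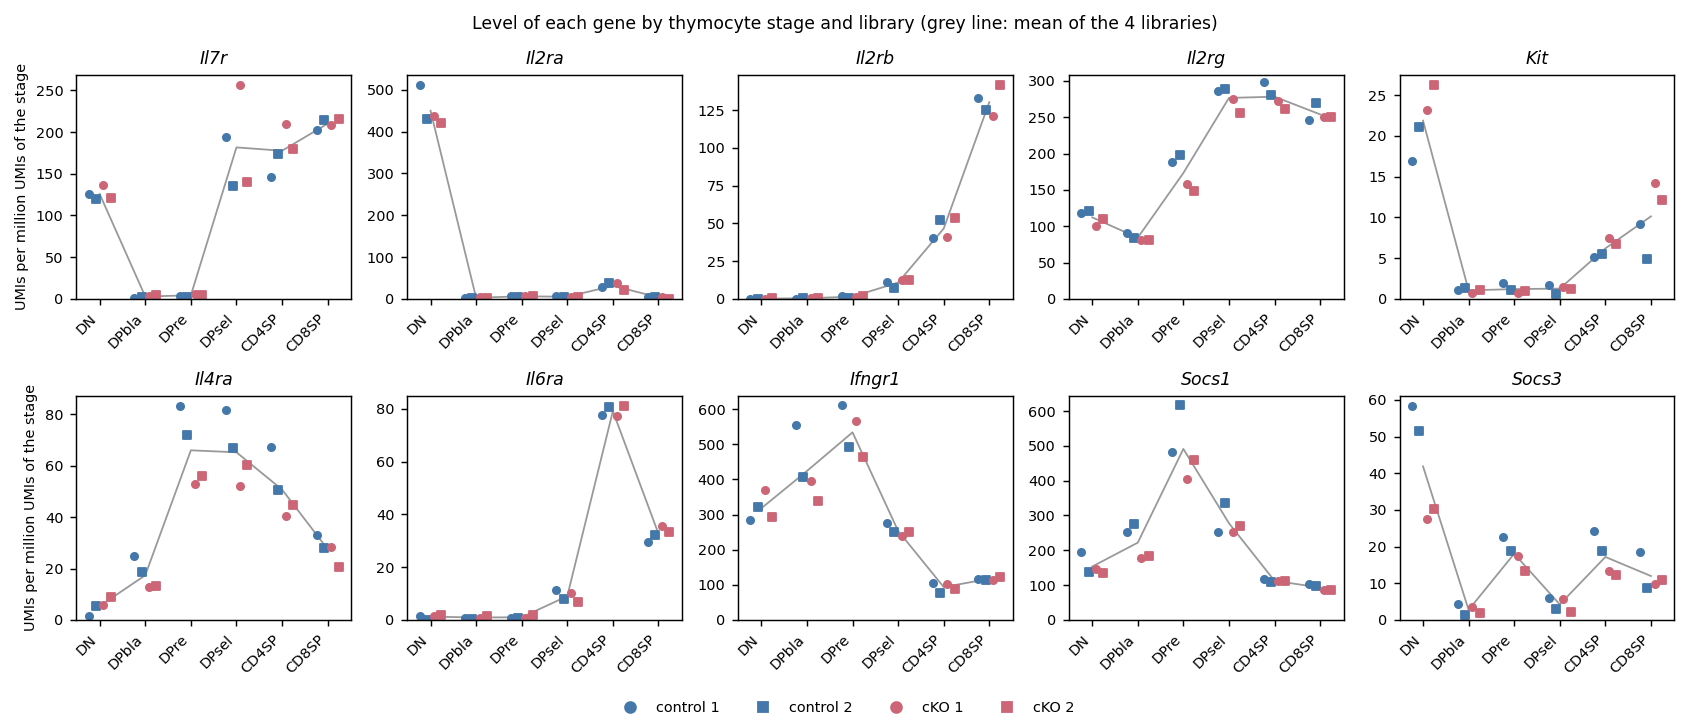
Level (CPM, linear axis from 0) of each of the 10 genes in 6 stages from DN to CD8SP, 1 point for each library, control and cKO in separate colours, with a grey line through the means of the 4 libraries. Il7r falls to under 6 CPM in DPbla and DPre and is at 136 to 256 CPM in DPsel, while Socs1 and Ifngr1 have their highest mean in DPre.

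**Figure D3:**
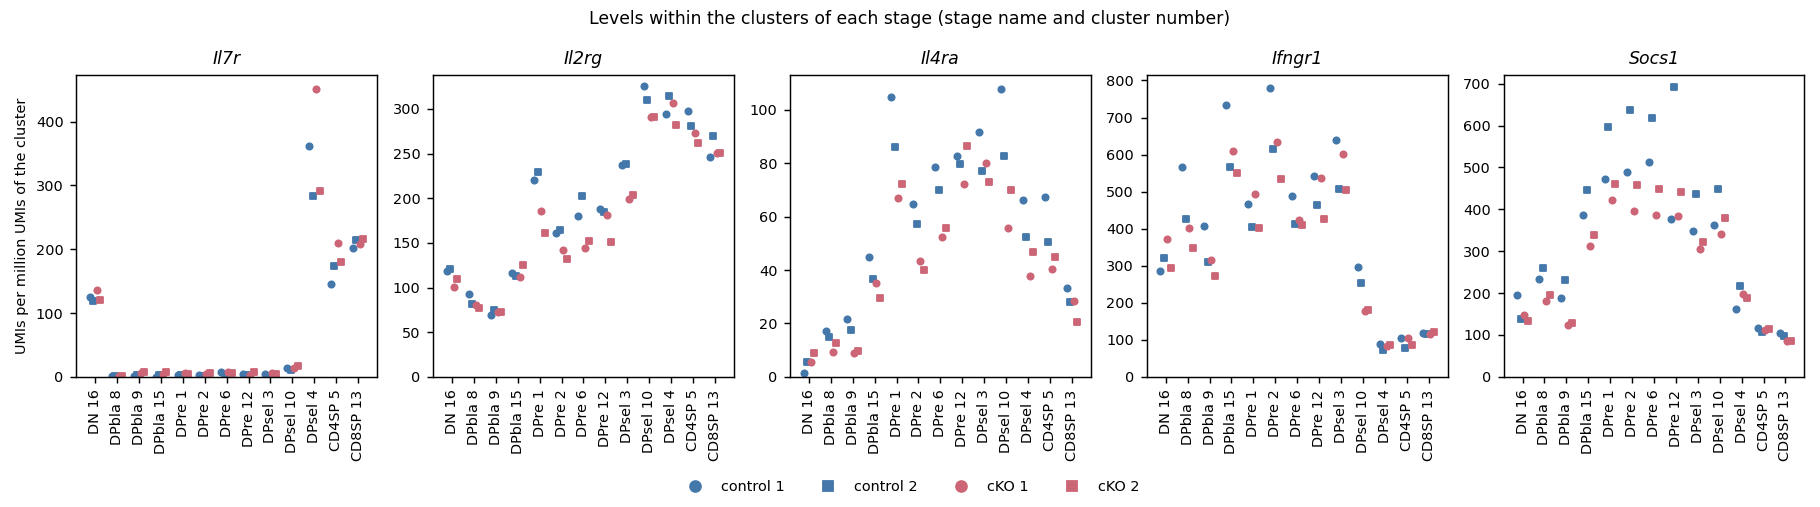
Level (CPM, linear axis from 0) of Il7r, Il2rg, Il4ra, Ifngr1 and Socs1 in the clusters of the 6 stages with at least 30 cells in each library, 1 point for each library, control and cKO in separate colours. Within DPsel, the mean of the 4 libraries is 4.18 CPM in cluster 3 and 347 CPM in cluster 4 for Il7r, and 563 and 83.3 CPM for Ifngr1.

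Across the 24 sums of 6 stages in 4 libraries, the genes with the most similar course, by Pearson's r of log2(CPM + 1), are given as a description, since sums of 1 library share its depth and stages were set by clustering. Il7r ran with Gpr65, Ccnd2 and Bcl2 (r = 0.98 each), Bcl2 being a survival gene and a known target of IL-7. Il2ra ran with F730043M19Rik (r = 0.95), Fam169b (r = 0.93) and Kctd14 (r = 0.92), Il2rb with Trpm1, Cotl1 and the integrin gene Itgb7 (r = 0.98 each), and Il2rg with Tnik, St6gal1 and Inpp4b (r = 0.97 each). Kit ran with Atp8b4, Prelid2 and Coro2a (r = 0.94 to 0.95), and Il4ra with Arhgap4 (r = 0.98), Stxbp3 and Rgl2 (r = 0.95 each). Il6ra ran with Ifi27l2a, Add3 and 2010016I18Rik (r = 0.97 to 0.98). Ifngr1 ran with the chemokine receptor gene Cxcr4 (r = 0.98), Xrcc6 and Nebl (r = 0.97 each), and Socs1 with Ssbp2, Themis and A430035B10Rik (r = 0.97 each), Themis being needed for positive selection. Socs3 had the loosest likeness, to 2410006H16Rik (r = 0.91), Epb41l4aos (r = 0.90) and Cmah (r = 0.89). Among the 10 genes themselves, Il2rb and Il6ra ran together (r = 0.92), Ifngr1 ran with Socs1 (r = 0.81) and against Il6ra (r = -0.95), Il2rb (r = -0.88) and Il7r (r = -0.77).

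The cKO libraries were then compared with the control libraries stage by stage, to ask whether loss of Tox4 from DN3 on went with another level of these genes. Socs1 was lower in cKO DPbla cells, and Il4ra was lower over all DP cells. Each comparison was a quasi-likelihood test in edgeR on UMIs summed per library and stage, with Benjamini-Hochberg adjustment over all genes tested and calls at an adjusted p under 0.05. Per the study's text, 2 pairs of control and cKO mice were used, which the labels do not tie to the library numbers, so p-values measure the spread between 2 libraries of a genotype, and a permutation of 2 against 2 libraries could not go below an exact p of 0.3333. Of 60 pairs of gene and stage, 9 had too few UMIs to be tested, 1 of 51 tested was called and 15 had an unadjusted p under 0.05, a threshold that 7.01 to 15.8% of all genes tested met in a stage.

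In DPbla, 1 of 7 genes tested was called, Socs1, where 2.51% of all 10727 genes tested were, and 5 had an unadjusted p under 0.05 (15.8% of all). Socs1 was at 254 and 274 CPM in control and 176 and 183 in cKO (log2 fold change -0.51, SE 0.10, adjusted p = 0.0194), and the genotypes did not overlap. It was lower in both cKO libraries than in both control libraries in each of the 3 clusters of DPbla. It was at 233 and 259 CPM in control and 181 and 195 in cKO in the Mki67 cluster and at 188 and 231 CPM in control and 124 and 129 in cKO in the Hells and Cdc6 cluster. In the Cenpf and Cdc20 cluster it was at 386 and 447 CPM in control and 313 and 339 in cKO. The clusters took different shares of DPbla, the Cenpf cluster 29.3% and 18.9% in control and 19.3% and 17.1% in cKO, and the Hells and Cdc6 cluster, where Socs1 is lowest, 31.4% and 33.1% in control and 38.4% and 41.7% in cKO, without overlap. The part of these shares in the DPbla value was not tested. In thinned DPbla cells the share with a Socs1 UMI was 20.3 and 23.4% in control and 17.3 and 17.5% in cKO. The call was lost when control 2, cKO 1 or cKO 2 was left out (adjusted p = 0.114, 0.199 and 0.251). It was also lost at a mitochondrial limit of 5% (log2 fold change -0.43) and with the UMI extremes kept (-0.35).

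Groups that do not overlap are a weaker criterion, met in DPbla by 46.9% of all genes and by 6 of 7 of these. Of the 7, 4 were lower in both cKO libraries, against 28.7% of all genes. Il4ra was at 24.9 and 18.5 CPM in control and 12.7 and 13.3 in cKO (edgeR adjusted p = 0.0603). Ifngr1 was at 554 and 407 CPM in control and 396 and 339.9 in cKO (edgeR adjusted p = 0.219). Il7r was at 0.868 and 1.902 CPM in control and 3.92 and 4.396 in cKO, from 4 and 12 UMIs in control and 32 and 50 UMIs in cKO (log2 fold change 1.56, SE 0.41, adjusted p = 0.0617). By cluster, Il7r was at 0.956 and 0.876 CPM in control and 1.34 and 0.993 in cKO in the Mki67 cluster. It was at 1.36 and 3.39 CPM in control and 6.69 and 7.03 in cKO in the Hells and Cdc6 cluster, whose share was larger in cKO. In the Cenpf and Cdc20 cluster it was at 0 and 2.44 CPM in control and 4.39 and 7.37 in cKO. Il2ra was at 1.302 and 1.27 CPM in control and 4.65 and 2.901 in cKO, from 6 and 8 UMIs in control and 38 and 33 UMIs in cKO (log2 fold change 1.56, SE 0.43, adjusted p = 0.0773). These low levels did not pass the test in DPbla, which has genotype as its single term. With the replicate number as a block, a pairing that the labels do not give, Il4ra, Il7r, Il2ra and Ifngr1 were called (edgeR adjusted p = 0.00147, 0.00279, 0.00699 and 0.00517). DN cells, where both genes are high, were 1.26% and 1.28% of kept cells in control and 2.04% and 2.45% in cKO. The summed level of 7 DN markers in DPbla, all detected, was 141 and 99.2 CPM in control and 151 and 105 CPM in cKO. In DN cells there were 333 and 469 UMIs in control and 623 and 1040 UMIs in cKO of Il2ra and 82 and 130 UMIs in control and 194 and 299 UMIs in cKO of Il7r. In the C1qa and C1qb cluster of the macrophage-like class, a type not known for either gene, Il2ra was at 0 and 2.54 CPM in control and 10.99 and 8.13 in cKO. Il7r was at 8.07 and 5.07 CPM in control and 6.59 and 11.4 in cKO there, above its DPbla level in every library, with overlapping genotypes. How much of the DPbla values came from RNA of other cells was not tested.

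**Figure D4:**
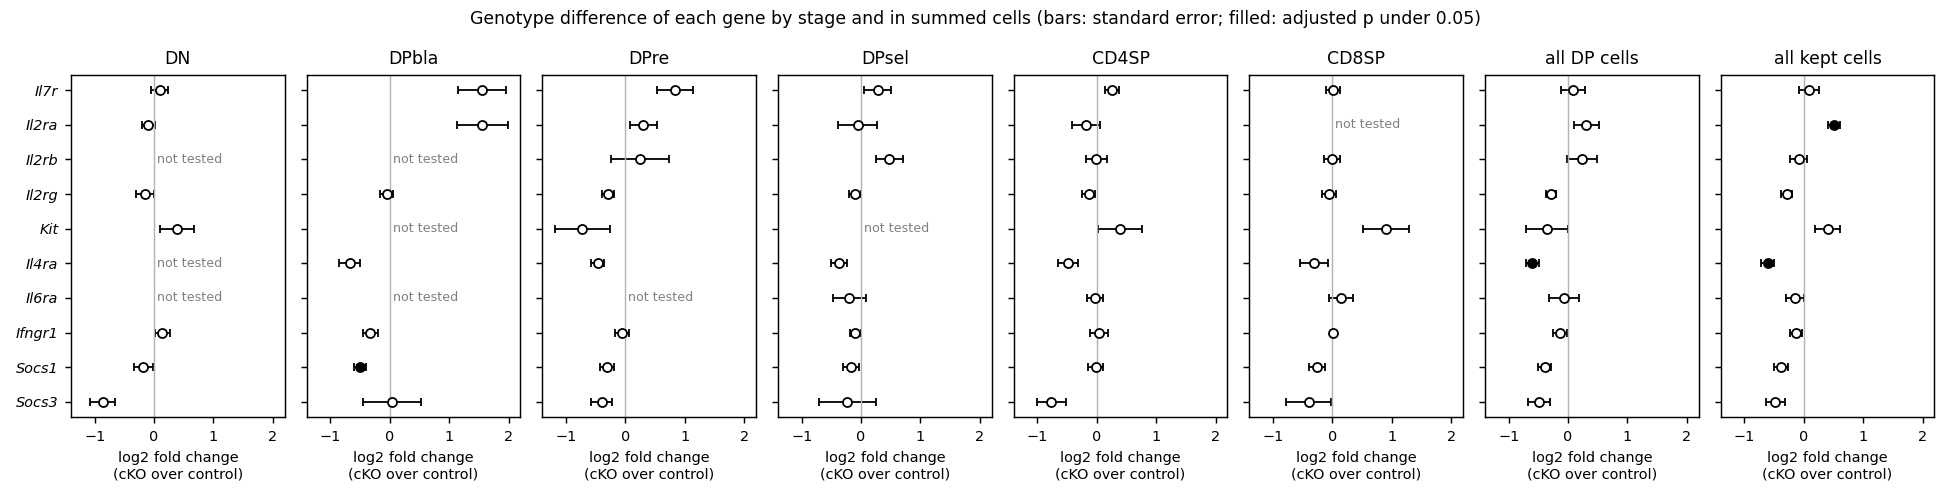
Log2 fold change of cKO over control with its standard error for each of the 10 genes in each stage, in all DP cells and in all kept cells, filled where the adjusted p was under 0.05. A point without a bar has a fold change too near 0 for its error to be read back from the test. Filled points are Socs1 in DPbla at -0.51, Il4ra in all DP cells at -0.60 and in all cells at -0.61, and Il2ra in all cells at 0.51.

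In DPre, edgeR called 0 of 9 genes (1.75% of all 11687), DESeq2 called 0, and 5 had an unadjusted p under 0.05 (15.3% of all). In this stage 7 of 9 did not overlap, against 47.2% of all genes. Of the 9, 5 were lower in both cKO libraries, against 28.6% of all genes. For Il4ra, the fit gave a log2 fold change -0.47, SE 0.11, adjusted p = 0.0562. For Socs1 it gave a log2 fold change -0.31, SE 0.12, adjusted p = 0.215, and for Il2rg a log2 fold change -0.30, SE 0.10, adjusted p = 0.149. With the same block all 3 were called (edgeR adjusted p = 0.000498, 0.00169 and 0.00976). The median log2 fold change was -0.30 over the 9 genes and 0.0012 over all genes tested. After thinning, the share of DPre cells with an Il4ra UMI was 8.29 and 7.27% in control and 4.83 and 5.92% in cKO, and in DN cells, where Il4ra is lowest, 0 and 0% in control and 0 and 1.02% in cKO, with exact 95% intervals in DPre of 6.51 to 8.09% in control 2 and 5.31 to 6.57% in cKO 2, which cover counting error only.

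Over all DP cells summed, edgeR called 1 of 10 genes (5.57% of all 12851), Il4ra, at 68.1 and 57.2 CPM in control and 37.8 and 41.9 in cKO (log2 fold change -0.60, SE 0.11, adjusted p = 0.00761), and the call held with each library left out in turn. Over all kept cells it called 2 of 10 (2.74% of all 13841). They were Il4ra at 62.2 and 51.8 CPM in control and 34.8 and 38.3 in cKO (log2 fold change -0.61, SE 0.11, adjusted p = 0.0233) and Il2ra at 21.4 and 21.3 CPM in control and 29.1 and 30.7 in cKO (log2 fold change 0.51, SE 0.10, adjusted p = 0.0317). Sums over stages also move with the stages' shares: DPbla, where Il4ra is low, was 8.64% and 8.10% of kept cells in control and 10.9% and 11.1% in cKO. Within several clusters Il4ra was lower in both cKO libraries, at 105 and 86.2 CPM in control and 66.97 and 72.3 in cKO in the largest DPre cluster and 64.7 and 57.1 CPM in control and 43.4 and 40.0 in cKO in the next. It was at 66.2 and 52.4 CPM in control and 37.9 and 46.8 in cKO in the Itm2a cluster of DPsel and at 108 and 82.6 CPM in control and 55.9 and 69.9 in cKO in the Nr4a1 cluster. The genotypes overlapped in the Cd5 cluster of DPsel (91.7 and 77.2 CPM in control and 79.98 and 72.9 in cKO). They also overlapped in DPre cluster 12 of 1091 cells (82.6 and 79.6 CPM in control and 72.4 and 86.6 in cKO), where cKO 2 was highest, and in DPre cluster 19 of 131 cells (52.3 and 108 CPM in control and 21.5 and 61.4 in cKO). For Il2ra, the fit within DN cells, where its level is highest, gave a log2 fold change -0.10, SE 0.11, adjusted p = 0.883. Il2ra was higher in both cKO libraries in DPbla, as given above, and in DPre (6.24 and 4.86 CPM in control and 6.59 and 6.63 in cKO) without passing the test, and the share of DN cells was higher in both cKO libraries. The part of the stages' shares in either call was not tested. The Il2ra call over all cells was lost without control 1, cKO 1 or cKO 2, and the Il4ra call over all cells without control 1 or cKO 1. DESeq2 called the same genes and also Socs1, over all DP cells and over all cells, where edgeR did not.

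The other stages had no call among these genes. In DN, edgeR called 0 of 7 (0.0343% of all 8752) and DESeq2 0, with 1 at an unadjusted p under 0.05 (7.67% of all). It was Socs3, at 58.3 and 51.5 CPM in control and 27.4 and 30.3 in cKO (log2 fold change -0.87, SE 0.21, adjusted p = 0.232). It rested on 38 to 75 UMIs per library, and the summed level of 6 erythroid genes in DN was 508 CPM in cKO 1 against 3.07 to 19.4 CPM in the other 3 libraries. Its groups did not overlap, as held for 3 of 7 genes and for 37.8% of all. In DPsel 0 of 9 were called (0.13% of all 10799), 0 by DESeq2, and 1 had an unadjusted p under 0.05 (8.79% of all), Il4ra (log2 fold change -0.37, SE 0.13, adjusted p = 0.411). There 4 of 9 did not overlap, against 39.3% of all genes. In CD4SP 0 of 10 were called (0.207% of all 9679), 0 by DESeq2, and 2 had an unadjusted p under 0.05 (7.6% of all). The 2 were Il4ra and Socs3, each lower in both cKO libraries than in both control libraries. Of the 10 genes tested in CD4SP, 5 did not overlap, against 37% of all. In CD8SP 0 of 9 were called (0.0224% of all 8938), 0 by DESeq2, with 3 not overlapping against 37.6% of all. There 1 had an unadjusted p under 0.05 (7.01% of all), Kit, higher in both cKO libraries than in both control libraries. Il6ra in CD4SP (log2 fold change -0.02, SE 0.14, adjusted p = 0.99) and Il7r in CD4SP (log2 fold change 0.26, SE 0.13, adjusted p = 0.659) did not pass, nor did Il2rb in CD8SP (edgeR adjusted p = 0.998).

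Whether the genotype difference itself changed between neighbouring stages was tested with an interaction term in edgeR, with library as a block. From DN to DPbla, 3 of these genes passed, where 1.51% of 10857 genes did. The log2 fold change of cKO over control was higher in DPbla than in DN by 1.60 for Il2ra (SE 0.39, adjusted p = 0.0148) and by 1.43 for Il7r (SE 0.38, adjusted p = 0.0302), and lower by 0.46 for Ifngr1 (interaction -0.46, SE 0.12, adjusted p = 0.0323). Between the other neighbours no call fell on them, with background calls of 0.58% from DPbla to DPre, 0.399% from DPre to DPsel, 0% from DPsel to CD4SP (0 of 10645 genes, 511 at an unadjusted p under 0.05), 0.131% from DPsel to CD8SP and 0.02% between CD4SP and CD8SP. The interactions were lost when single libraries were left out, that of Il2ra without control 1, control 2 or cKO 1, that of Il7r without control 1 or cKO 2, and that of Ifngr1 without control 1, cKO 1 or cKO 2. With the UMI extremes kept, an alternative chosen after seeing the data, none of the 3 passed: the interaction was 0.30 for Il2ra (adjusted p = 0.65), 0.27 for Il7r (adjusted p = 0.704) and -0.42 for Ifngr1 (adjusted p = 0.069).

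The rest of the pathway was read from lists of 28 other receptor chains, 9 ligands, 11 kinases and STATs, 14 other inhibitors and 15 target and control genes. In DPbla, 17 of the other chains were tested and 1 rose by edgeR, Il12rb2, a chain of the IL-12 receptor, at 1.95 and 3.17 CPM in control and 6.001 and 6.77 in cKO (log2 fold change 1.32, SE 0.32, adjusted p = 0.039). Over all DP cells it rose as well (log2 fold change 1.25, SE 0.25, adjusted p = 0.0103), as did Il9r, another partner of the common gamma chain (log2 fold change 1.56, SE 0.34, adjusted p = 0.0179), which stood at 1.74 and 1.58 CPM in control and 3.92 and 3.69 in cKO in DPbla. These were 2 of 20 other chains tested over all DP cells, where 5.57% of all 12851 genes were called in either direction. None of the 11 kinases and STATs (Jak1 to Jak3, Tyk2 and the STAT genes) was called in any stage by either tool, with 1 in DN, 0 in DPbla and 2 in DPre at an unadjusted p under 0.05. None of the other inhibitors or of the ligands was called either, by either tool, the inhibitors with 0 in DN, 1 in DPbla and 1 in DPre at an unadjusted p under 0.05. Of 15 target and control genes, 1 rose in DPbla and in DPre, Myc, a growth gene downstream of many receptors. Myc was at 19.96 and 13.6 CPM in control and 46.4 and 48.6 in cKO in DPbla (log2 fold change 1.58, SE 0.16, adjusted p = 0.000232). In DPre it was at 10.3 and 9.57 CPM in control and 38.4 and 21.9 in cKO (log2 fold change 1.62, SE 0.23, adjusted p = 0.0049), and in DN at 212 and 128 CPM in control and 143 and 130.4 in cKO, where the groups overlapped. Single libraries ended some of these calls: Il12rb2 in DPbla without control 1, cKO 1 or cKO 2 (adjusted p = 0.165, 0.209 and 0.435), Il9r without control 2 (0.0643), and Myc in DPbla without cKO 2 (0.0578) and in DPre without cKO 1 (0.0788). DESeq2 called Myc in both stages and Il12rb2 over all DP cells, and gave no adjusted p for Il12rb2 in DPbla or for Il9r. With the UMI extremes kept, the log2 fold change in DPbla was 0.27 for Myc (adjusted p = 0.541) and 0.37 for Il12rb2 (adjusted p = 0.432), and neither was called, nor was Il12rb2 over all DP cells (0.70, adjusted p = 0.0593). Calls in the direction of Il12rb2 and Myc made up 1.64% of all genes tested in DPbla and 1.03% in DPre.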

How the data were processed

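Thymocytes of 2 control and 2 cKO libraries were measured by droplet single-cell RNA-seq. The authors aligned reads and made filtered matrices with Cell Ranger 6.1.1 on mm10, and the deposited values are raw UMI counts per gene and cell for 32285 genes, without normalization. Cells with under 200 genes, the highest and lowest 2.5% of UMIs in each library, cells with over 10% mitochondrial UMIs, the top 5% of doublet scores (Scrublet) and cells with over 1% neutrophil UMIs were removed, which left 5645 and 8435 control and 7289 and 12023 cKO cells, with median depths of 2492 to 3447 UMIs. Scanpy 1.11.5 clustered cells (Leiden, resolution 1) on 3000 variable genes without the 10 genes, and marker lists left 3 of 22 clusters unnamed. Cluster 7 (1787 cells, median 846 UMIs), made up 3.29, 3.59, 8.01 and 5.94% of kept cells in control 1, control 2, cKO 1 and cKO 2 and, like the neutrophil step, was set aside after seeing the clusters. UMIs summed per library and stage were tested with edgeR 4.0.16 (quasi-likelihood F test, TMM, low-count filter, Benjamini-Hochberg over all genes tested), with DESeq2 1.42.0, other filters, a replicate block and libraries left out as alternatives. In counts simulated for each stage, 13% (DN) to 44% (DPre) of genes changed by 0.5 on the log2 scale were recovered, and 66% (DN) to 86% (DPre) of those changed by 1. The changed genes were drawn only from those above a minimum mean count, so these rates do not cover genes with few UMIs. The genes and lists were chosen with earlier results of these data known. Named were the 10 genes, pathway genes called in an alpha-beta stage or over all DP cells, and for each gene the 3 with the most similar course. Il6st and Ifngr2, partner chains, were named outside this rule, after their values were seen. Coordinates are GRCm38, GENCODE release 21 (mouse).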

Additional observations from a re-analysis of the deposited data

Results flagged for a closer look

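Among the receptor, SOCS and pathway genes listed above, the genotype difference of 4 passed the interaction test between neighbouring stages in edgeR. Of all genes tested, 164 of 10857 (1.51%) passed from DN to DPbla and 47 of 11776 (0.399%) from DPre to DPsel. From DN to DPbla, the log2 fold change of cKO over control was higher by 1.60 for Il2ra, by 1.43 for Il7r and by 1.80 for Myc (adjusted p = 1.75e-12), and Ifngr1 had an interaction of -0.46. From DPre to DPsel, Myc had an interaction of -1.41 (adjusted p = 0.000172), its level in DPsel being 34.8 and 23.6 CPM in control and 41.5 and 24.6 CPM in cKO. The calls of Il2ra, Il7r and Ifngr1 were each lost with 2 or 3 of the single libraries left out, and with the UMI extremes kept (0.30, 0.27 and -0.42). Those of Myc held with each library left out (1.68 to 1.88 and -1.64 to -1.19) and with the extremes kept, where the first fell to 0.70 (adjusted p = 0.00888) and the second was -1.28. Groups of 2 libraries were not examined for samples far from the others.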

How the results depend on the processing

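Groups of 2 libraries limit every call, and single libraries moved most of them. Leaving out 1 library in turn, a lone sample being assumed to vary like the rest, gave 26 to 65 DN calls, 6 to 424 DPbla calls and 12 to 348 DPre calls. It gave 27 to 63 calls for DPsel, 2 to 70 for CD4SP, 23 to 158 for CD8SP, 624 to 935 over all DP cells and 146 to 634 over all cells. The log2 fold change ran from -0.59 to -0.41 for Socs1 in DPbla, from -0.73 to -0.48 for Il4ra and from 0.49 to 0.54 for Il2ra in all cells, and the interactions from DN to DPbla from 1.29 to 1.91 for Il2ra, 1.04 to 2.21 for Il7r and -0.81 to -0.18 for Ifngr1. Il4ra over all DP cells, at -0.70 to -0.49, kept its call in each.

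A mitochondrial limit of 5% gave 32 DPbla, 29 DPre, 46 DPsel and 5 CD4SP calls, 276 over all DP cells and 165 over all cells. It ended the calls of Socs1 in DPbla (-0.43) and of Il4ra in all cells (-0.64). Keeping the UMI extremes gave 0 DN, 59 DPbla, 28 DPsel and 16 CD8SP calls, 350 over all DP cells and 40 over all cells. It ended the calls of Socs1 in DPbla (-0.35), Il4ra in all cells (-0.63) and Il2ra in all cells (0.51), and, as an alternative added after seeing the data, the interactions from DN to DPbla of Il2ra (0.30), Il7r (0.27) and Ifngr1 (-0.42), and turned the sign of Il2ra in DN to 0.12, as leaving out control 1 did (its values with a library left out ran from -0.21 to 0.0065). No filter on low counts gave 77 DN, 617 DPbla, 654 DPre, 171 DPsel, 105 CD4SP and 116 CD8SP calls, 1270 over all DP cells and 1125 over all cells. Without scaling factors, a setting chosen after seeing the data, there were 7 calls in DPsel and 35 in CD4SP, and Il2ra in all cells was not called (0.49). Keeping doublets gave 56 calls in DPsel, 8 in CD4SP and 34 in CD8SP, resolution 1.5 gave 2 in DPsel and 56 in CD4SP, and DESeq2 gave 1 in CD8SP. The causes were not tested. No DN, CD8SP or macrophage-like class came out at 5%. With the extremes kept, the C1q cluster was unnamed and the macrophage-like class held 5 to 17 cells per library, too few to test.

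With the replicate number as a block there were 41 DN, 1116 DPbla, 1116 DPre, 344 DPsel, 124 CD4SP and 0 CD8SP calls, 1978 over all DP cells and 1963 over all cells. The block added Il4ra, Il7r, Il2ra and Ifngr1 in DPbla (adjusted p = 0.00147, 0.00279, 0.00699 and 0.00517, edgeR) and Il4ra, Socs1 and Il2rg in DPre (0.000498, 0.00169 and 0.00976). Same-numbered libraries deviated together only weakly (correlations of 0.066 to 0.35), and the labels name no litter or day behind a number, so the numbers were not taken as pairs, although the mitochondrial shares also went with the number.

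The stage ratios moved, in log2, for Il2ra from DPbla to DN with the extremes kept (5.35), for Il2rb (1.88) and Il6ra (0.98) between CD8SP and CD4SP at resolution 1.5, and for Il6ra with doublets kept (1.495). Il2rg between DPbla and DPsel was 1.94 at the 5% limit, 1.79 with doublets, 2.04 with the extremes and 1.80 at resolution 1.5. Il4ra between DPbla and DPre was 2.55, 2.88 and 2.16 at the 5% limit, with the extremes and at resolution 1.5. Ifngr1 between CD4SP and DPre was 2.66 at the 5% limit and 2.31 with doublets. Unthinned, the mean share of cells with a UMI was 55.9% for Il7r and 47.5% for Il2rb in CD8SP, 79.3% for Il2ra, 15.7% for Kit and 28.9% for Socs3 in DN, 73.0% for Il2rg and 30.7% for Il6ra in CD4SP, and 16.9% for Il4ra, 64.3% for Ifngr1 and 67.0% for Socs1 in DPre.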
